A study of Mus musculus with 2 samples.

Results

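Nanog binding was examined around 10 genes of the fibroblast growth factor (FGF) and extracellular signal-regulated kinase (ERK) pathway, out of 21755 protein-coding genes on chromosomes 1 to 19 and X. The genes were chosen by name: the ligand Fgf4, the receptors Fgfr1 and Fgfr2, the feedback inhibitors Spry2, Spry4, Dusp6, Spred1 and Spred2, and the Ets family effectors Etv4 and Etv5. They were chosen with earlier results of these data known, so that comparisons with all genes are descriptions. A peak was assigned to a gene when its middle base lay within 100 kb of the transcription start site (TSS), and in a separate count when the gene had the nearest protein-coding TSS. Of the 8737 distinct Nanog peaks, 32 lay within 100 kb of a TSS of these genes and 30 had a pathway gene as the nearest one, with 29 peaks meeting both rules.

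The peaks come from chromatin immunoprecipitation and sequencing (ChIP-seq) of Bruce-4, a line of mouse embryonic stem cells (ESCs) grown with serum and leukemia inhibitory factor (mLIF). The series holds 1 sample precipitated with the rabbit monoclonal anti-Nanog antibody D1G10 and 1 sample of input chromatin, and neither has a replicate. The peak list gives positions only, without a score or read count for any peak, and no difference could be tested against replicate error. No expression was measured, so the labelled cell type could not be checked against its markers. Intervals given with shares and medians are exact 95% binomial intervals, which cover counting error only.

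The FGF and ERK pathway carries a signal from secreted FGF ligands through receptor tyrosine kinases, the Ras proteins and a kinase cascade to the nucleus, where Ets family factors are among its targets. Signalling is held in check by feedback inhibitors that the pathway itself induces, among them the Sprouty and Spred proteins and dual-specificity phosphatases. In mouse ESCs, Fgf4 is the main autocrine ligand, and ERK signalling drives the cells out of the naive pluripotent state that Nanog sustains.

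The start given to Fgfr2 decides part of the counts. In GENCODE vM21 the gene spans 2960.9 kb, because 1 of its 27 transcripts starts inside the neighbourhood of Ctbp2, the gene of a transcriptional corepressor, 2856.5 kb from the start that RefSeq gives. All 5 peaks counted for Fgfr2 lie at that distant start. From the RefSeq start Fgfr2 had no peak within 100 kb, its closest peak lay 128.0 kb away, and no peak had it as the nearest gene. The counts were therefore also taken with RefSeq starts and without the Fgfr2 peaks, both chosen after the data were seen.

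The sequences of 9 peaks are shown because the later results turn on them: both peaks of Fgf4, the peaks that lie close to the starts of Spry2, Spred1 and Spred2, the peaks with an Oct octamer, a peak with an Oct4-Sox2 composite, the peak with the most motif copies, at Spred1, and the peak in the coding exon of Etv5. All are from the plus strand of GRCm38 (mm10), 5′ to 3′, whole or as the central 300 bases. Capitals mark matches on either strand to the motifs named further on, and adjoining or overlapping matches run together.
Fgf4, 2.52 kb before the RefSeq start, chr7:144858748-144858990: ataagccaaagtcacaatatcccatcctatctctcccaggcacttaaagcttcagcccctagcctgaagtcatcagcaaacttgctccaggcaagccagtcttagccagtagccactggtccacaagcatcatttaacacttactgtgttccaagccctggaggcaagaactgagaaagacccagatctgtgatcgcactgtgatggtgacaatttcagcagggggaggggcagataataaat
Fgf4, 1.20 kb before the RefSeq start, chr7:144860071-144860305: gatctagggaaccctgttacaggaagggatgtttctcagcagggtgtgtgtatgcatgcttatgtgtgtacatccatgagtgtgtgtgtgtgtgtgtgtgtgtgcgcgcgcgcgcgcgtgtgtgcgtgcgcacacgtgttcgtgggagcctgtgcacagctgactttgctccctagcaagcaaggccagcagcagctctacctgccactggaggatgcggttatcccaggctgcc
Fgfr1, 48.0 kb upstream, chr8:25465509-25465808: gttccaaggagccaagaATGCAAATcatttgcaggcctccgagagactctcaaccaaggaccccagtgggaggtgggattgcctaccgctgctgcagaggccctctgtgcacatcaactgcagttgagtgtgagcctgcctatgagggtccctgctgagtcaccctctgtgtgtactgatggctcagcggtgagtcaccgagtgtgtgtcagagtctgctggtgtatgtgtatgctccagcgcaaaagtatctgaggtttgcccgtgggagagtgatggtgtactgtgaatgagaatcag
Spry2, 4.22 kb upstream, chr14:105900919-105901153: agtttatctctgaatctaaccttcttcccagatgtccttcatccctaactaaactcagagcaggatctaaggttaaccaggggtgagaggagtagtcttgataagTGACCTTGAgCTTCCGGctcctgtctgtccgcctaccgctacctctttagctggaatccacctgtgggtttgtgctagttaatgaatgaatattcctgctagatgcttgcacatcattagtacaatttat
Spred1, 1.31 kb upstream, chr2:117119910-117120209: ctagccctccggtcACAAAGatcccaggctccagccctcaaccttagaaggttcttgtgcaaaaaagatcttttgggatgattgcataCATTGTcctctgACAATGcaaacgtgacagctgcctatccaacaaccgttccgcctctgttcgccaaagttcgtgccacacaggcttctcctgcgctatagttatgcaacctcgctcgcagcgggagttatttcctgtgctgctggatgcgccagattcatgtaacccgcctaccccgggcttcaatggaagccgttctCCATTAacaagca
Spred1, 71.0 kb upstream, chr2:117050251-117050550: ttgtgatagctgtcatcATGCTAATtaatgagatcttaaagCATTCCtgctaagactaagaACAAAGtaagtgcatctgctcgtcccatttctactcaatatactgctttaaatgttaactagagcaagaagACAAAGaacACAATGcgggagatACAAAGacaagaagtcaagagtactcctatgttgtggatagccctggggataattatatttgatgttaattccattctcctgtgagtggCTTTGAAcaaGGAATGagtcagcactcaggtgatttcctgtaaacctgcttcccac
Spred2, 4.01 kb upstream, chr11:19920219-19920518: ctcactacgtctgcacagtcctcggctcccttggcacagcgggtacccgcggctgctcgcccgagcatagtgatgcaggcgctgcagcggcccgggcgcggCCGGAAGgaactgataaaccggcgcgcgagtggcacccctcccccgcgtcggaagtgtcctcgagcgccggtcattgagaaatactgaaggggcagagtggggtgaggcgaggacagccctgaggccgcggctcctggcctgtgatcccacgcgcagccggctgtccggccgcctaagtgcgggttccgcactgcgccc
Spred2, 74.4 kb upstream, chr11:19849879-19850140: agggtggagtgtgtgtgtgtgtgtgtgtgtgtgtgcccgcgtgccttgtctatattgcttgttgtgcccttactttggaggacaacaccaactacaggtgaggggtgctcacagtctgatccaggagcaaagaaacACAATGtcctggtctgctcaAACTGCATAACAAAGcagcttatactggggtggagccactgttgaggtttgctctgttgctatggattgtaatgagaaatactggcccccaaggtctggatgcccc
Etv5, 27.8 kb downstream, chr16:22411733-22412032: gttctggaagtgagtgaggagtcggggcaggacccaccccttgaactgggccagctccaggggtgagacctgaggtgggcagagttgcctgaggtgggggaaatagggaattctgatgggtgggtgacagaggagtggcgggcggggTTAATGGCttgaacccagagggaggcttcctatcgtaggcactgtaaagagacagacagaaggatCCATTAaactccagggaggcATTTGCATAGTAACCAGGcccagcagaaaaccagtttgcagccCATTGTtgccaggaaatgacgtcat

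The 18-base site in the 3′ part of Fgf4 is shown because it holds the Sox and Oct half-sites set 4 bases apart, the arrangement known from the Fgf4 enhancer. It lies at chr7:144864394-144864411 on the plus strand, in the 3′ untranslated region of the gene, and its capitals mark the Sox motif and the octamer variant.
Fgf4, Sox and Oct site: CTTTGTttggATGCTAAT
No Nanog peak lay on this site, and the closest peak centre was 4.21 kb away. A site absent from the list cannot be told from one bound below the threshold of the peak call.

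Peaks lay within 100 kb of 8 of the 10 genes, and Dusp6 and Etv4 had none. Over all protein-coding genes the share with such a peak was 54.8%. With RefSeq starts, 7 of the 10 genes had a peak, with 27 peaks in all, against 54.7% of all genes. The plot of peaks by distance from the start shows that most of them lay more than 10 kb away, on either side. The clusters at Etv5 and upstream of Fgfr1 were separate from the GENCODE and RefSeq gene starts, though another Etv5 transcript starts within the Etv5 cluster.

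**Figure D1:**
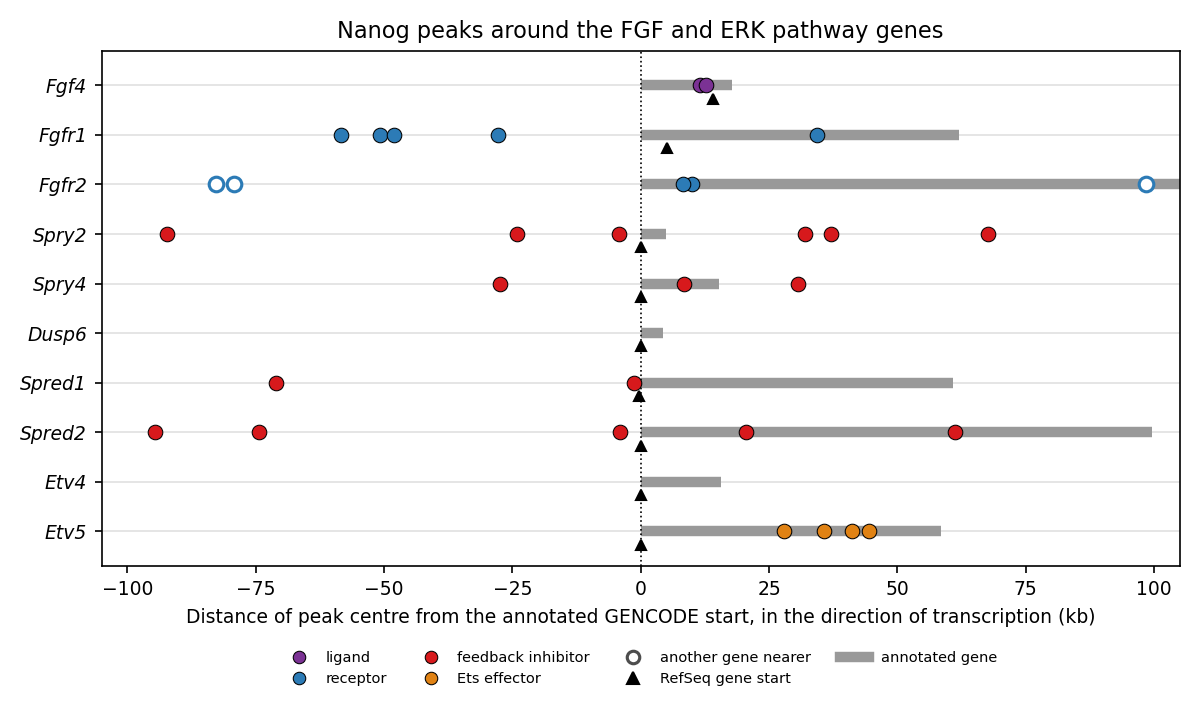
Nanog peaks (points) around the 10 genes, plotted by the distance of the peak centre from the GENCODE start in kb, with upstream to the left. Grey bars are the annotated genes, open points are peaks with another protein-coding gene nearer, and triangles are RefSeq starts. The Fgfr2 RefSeq start lies far outside the plotted range, and the RefSeq start of Fgf4 lies just downstream of its 2 peaks.

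The number of peaks varied among the genes, from 0 to 6. Fgfr1, Fgfr2, Spry2 and Spred2 had 5 or more peaks within 100 kb, which was 4 of 10 genes beside 1.94% of all protein-coding genes. Without Fgfr2, 3 of 9 had that many. The median was 3.5 peaks a gene beside 1 over all protein-coding genes. It counts the 5 peaks at the distant Fgfr2 start, where RefSeq starts gave Fgfr2 0 peaks, and no median with RefSeq starts is given.

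**Figure D2:**
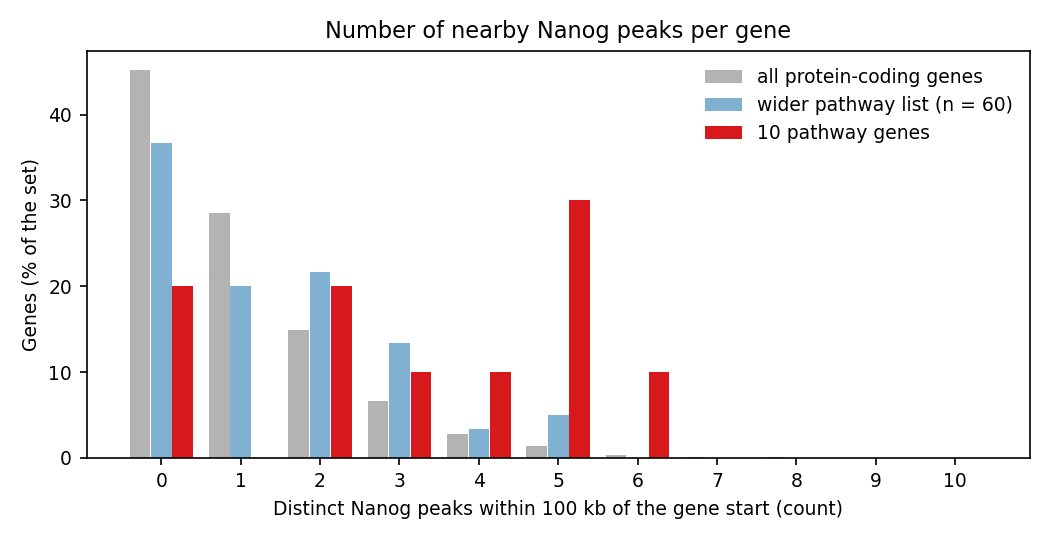
Share of genes (percent of each set) by the number of distinct Nanog peaks within 100 kb of the gene start, for all protein-coding genes, a list of 60 other pathway genes and the 10 genes. Of the 10 genes, 3 had 5 peaks and 1 had 6, while 45.2% of all protein-coding genes had none.

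The closest peak was also nearer to the start than for most genes. Its median distance was 9.94 kb, beside 85.3 kb over all protein-coding genes, and it was below the latter in 8 of the 10 genes. The interval of this median, 4.01 to 103.2 kb, held the value over all protein-coding genes. The median over the 10 genes was 18.0 kb with RefSeq starts, 5.87 kb from the start of every transcript, and 25.9 kb with peaks at or above the median width only. For these settings no median over all protein-coding genes is given, and 85.3 kb belongs to the main setting. Spry2, Spred1 and Spred2 had a peak within 5 kb of the GENCODE start, which was 3 of 10 genes beside 6.25% of all protein-coding genes. Fgf4 had one 1.20 kb from its RefSeq start. No peak lay within 1 kb of the GENCODE start of any of the 10 genes, and only 2.39% of all protein-coding genes had one that close.

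**Figure D3:**
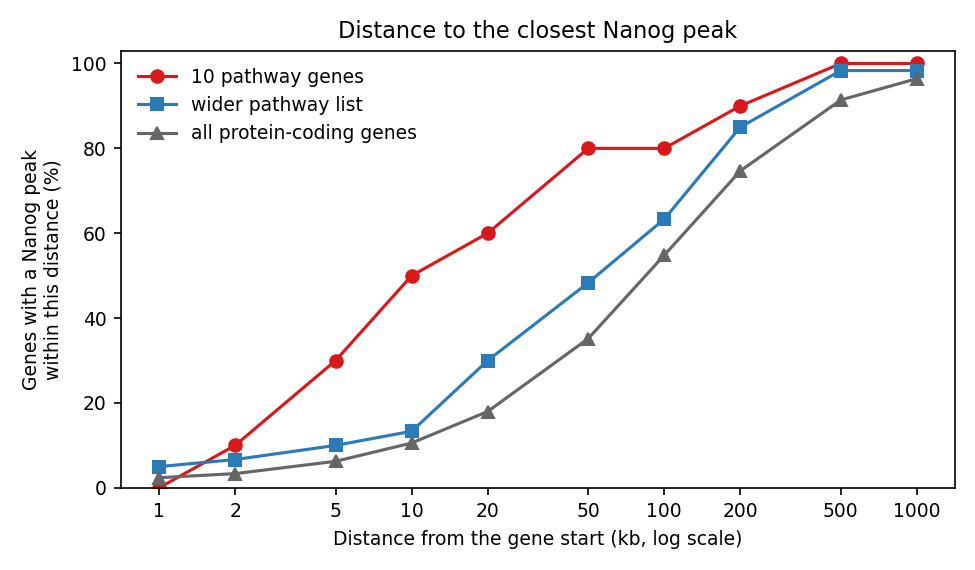
Share of genes (percent) with a Nanog peak within a given distance of the start (kb, log scale), for the 10 genes, a list of 60 other pathway genes and all protein-coding genes. At 10 kb the shares were 50%, 13.3% and 10.6%.

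Of the 10 genes, 8 were the nearest protein-coding gene of a peak, beside 24.6% of all protein-coding genes, and all 8 were nearest to at least 2 peaks, beside 8.66%. These genes have wide stretches of genome to themselves, with a median of 178.0 kb to which their start is the nearest, beside 47.1 kb over all protein-coding genes. Among genes with a stretch of 100 kb or more, a limit chosen after the data were seen, 48.7% were nearest to a peak, and so were 6 of the 7 pathway genes of that kind. Per 100 kb of its stretch, the set held 1.38 peaks, 1.34 without Fgfr2, while all protein-coding genes together held 0.346. When noncoding genes and pseudogenes also competed for a peak, 5 of the 10 genes stayed nearest to any, and the peaks fell from 30 to 13. No matching share of all protein-coding genes is given for this rule, so the fall cannot be read as a trait of these genes.

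**Figure D4:**
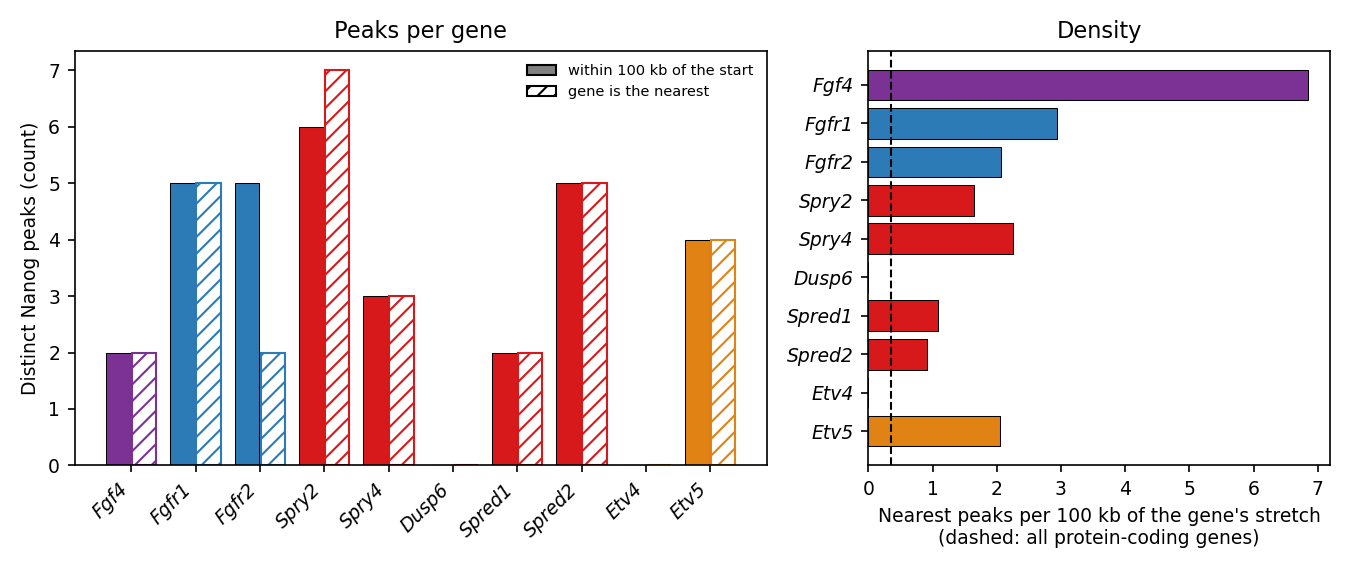
Left, distinct Nanog peaks per gene within 100 kb of the start (filled) and with the gene as the nearest protein-coding gene (hatched). Right, peaks to which the gene is nearest per 100 kb of the stretch of genome that is closer to its start than to any other protein-coding start, with the value over all protein-coding genes, 0.346, as a dashed line. Dusp6 and Etv4 are at 0, and Fgf4, with 2 peaks in a stretch of 29.2 kb, is highest.

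Fgf4 (ENSMUSG00000050917.5, chr7:144847367-144865243, plus strand), the ligand, had 2 peaks, of 243 bp and 235 bp, and the latter is the smallest width in the list. Their distance depends on the start used. From the GENCODE start they lay 11.5 kb and 12.8 kb downstream, in an intron of the longer of its 2 transcripts. From the RefSeq start, which is that of the shorter transcript and lies 14.0 kb further on, they were 2.52 kb and 1.20 kb upstream. At least as many peaks within 100 kb were found at 26.3% of all protein-coding genes, so the count itself is common. The starts of 5 other protein-coding genes lie within 100 kb, among them those of the ligands Fgf3 and Fgf15 and of the cyclin Ccnd1, and the same 2 peaks are counted for Fgf3 and Fgf15. Neither printed sequence held any of the motifs searched, and the second is centred in sequence masked as a repeat in the reference.

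Fgfr1 (ENSMUSG00000031565.18, chr8:25513654-25575718, plus strand), a receptor tyrosine kinase for FGF4 and other FGFs, had 5 peaks, a number reached by 1.94% of all protein-coding genes. Of these, 4 lay upstream, at 58.4, 50.8, 48.0 and 27.9 kb from the start. The 3 farthest upstream formed a stretch of 10.8 kb with no gap over 12.5 kb. The fifth lay 34.4 kb downstream in an intron of Fgfr1, 7.53 kb from the start of another Fgfr1 transcript. All 5 had Fgfr1 as the nearest protein-coding gene. When all annotated genes competed, none did, since the pseudogene Gm10689, the long noncoding RNA gene Gm31045 and the antisense gene Gm16159 lay nearer. The peak at 48.0 kb carried an octamer in the printed sequence, and the widest, of 438 bp, was the one at 27.9 kb.

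Fgfr2 (ENSMUSG00000030849.18, chr7:130162451-133123350, minus strand) encodes a receptor best known from the extraembryonic lineages of the early embryo. Of the 5 peaks at its distant GENCODE start, 3 lay downstream, at 8.27, 9.99 and 98.4 kb, with centres in introns shared by the annotations of Ctbp2 and Fgfr2. The other 2 lay 79.3 and 82.6 kb upstream and had Ctbp2 as the nearest gene. The peak at 98.4 kb had Zranb1, a gene for a deubiquitinase, as the nearest. The closest peak to the RefSeq start, of 377 bp at chr7:130394634-130395010, lay 128.0 kb upstream and had Ate1, an arginyltransferase gene, as the nearest protein-coding gene. These 5 peaks are therefore near Fgfr2 by its longest transcript only.

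The feedback inhibitors, 5 of the 10 genes, held 16 of the 32 peaks. A peak lay within 100 kb of 4 of the 5, beside 54.8% of all protein-coding genes, and 17 peaks had one of them as the nearest gene. Per 100 kb of their stretches they held 1.06 nearest peaks, beside 1.45 for the Ets effectors, 2.62 for the receptors and 6.84 for the ligand. The receptor value includes the 2 nearest peaks at the distant Fgfr2 start, and Fgfr1 alone held 2.93. The ligand value rests on Fgf4 alone, whose 2 peaks were both narrower than the median peak. The value over all protein-coding genes was 0.346. Spry2 (ENSMUSG00000022114.5, chr14:105891947-105896819, minus strand), a Sprouty inhibitor of receptor tyrosine kinase signalling, had 6 peaks within 100 kb, the highest count of the 10 genes, reached by 0.565% of all protein-coding genes. Its peaks lay on both sides of the start, 3 upstream and 3 downstream. Upstream they lay at 4.22, 24.1 and 92.2 kb, and downstream at 31.9, 37.2 and 67.7 kb. The 3 downstream peaks were all centred in sequence masked as a repeat in the reference. With peaks at or above the median width only, Spry2 had 2 peaks within 100 kb. A further peak, 148.3 kb downstream, also had Spry2 as its nearest protein-coding gene. No other protein-coding start lies within 100 kb of that of Spry2. The peak 24.1 kb upstream was, at 501 bp, the widest of the 32. The peak 4.22 kb upstream, of 235 bp, carried an Esrrb motif at position 106 and an Ets motif at position 116 of the printed sequence. With noncoding genes competing, 3 of the 7 peaks kept Spry2 as the nearest gene.

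Spred1 (ENSMUSG00000027351.14, chr2:117121374-117182279, plus strand), which restrains signalling through Ras, had 2 peaks, and at least as many were found at 26.3% of all protein-coding genes. Both were upstream and wider than the median peak. The nearer, of 393 bp, lay 1.31 kb from the start. It held 3 Sox motifs and 1 Nanog core motif. No peak was closer to the GENCODE gene start of any of the 10 genes, though a peak at Fgf4 lay 1.20 kb from a transcript start. The other Spred1 peak, of 441 bp at 71.0 kb, held 4 Sox motifs, 2 Tead motifs, 1 Tcf motif and 1 octamer variant.

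Spred2 (ENSMUSG00000045671.17, chr11:19924375-20024026, plus strand), the paralog with the same known role, had 5 peaks. They ran along the locus on both sides of the start, at 94.5, 74.4 and 4.01 kb upstream and at 20.5 and 61.2 kb downstream in introns of Spred2. All 5 had Spred2 as the nearest protein-coding gene, and its stretch of genome, 547.0 kb, was the longest of the 10. With peaks at or above the median width only, Spred2 had 1 peak within 100 kb. The peak 4.01 kb upstream was the richest in G and C of the 32, at 70.4%, and held an Ets motif and none of the other motifs. The peak at 74.4 kb held an Oct4-Sox2 composite.

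Spry4 (ENSMUSG00000024427.7, chr18:38586247-38601415, minus strand), another Sprouty gene, had 3 peaks, a count reached by 11.4% of all protein-coding genes. They lay 27.4 kb upstream in an intron of a noncoding gene, 8.38 kb downstream in an intron of Spry4, and 30.6 kb downstream between genes. All were wider than the median peak, at 320, 389 and 373 bp. When all annotated genes competed, none of the 3 kept Spry4 as the nearest gene. No sequence is shown for this locus.

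Dusp6 (ENSMUSG00000019960.8, chr10:99263231-99267489, plus strand), a phosphatase that inactivates ERK, was the only 1 of these 5 inhibitors without a peak within 100 kb. In the list of other pathway genes, 4 of 9 other feedback inhibitors had none either, and so did 45.2% of all protein-coding genes. Dusp6 also had no peak within 200 kb. Its closest peak, of 529 bp, lay 422.5 kb upstream with Atp2b1, a calcium pump gene, as the nearest gene. A closest peak at this distance or nearer was found for 89.6% of all protein-coding genes. Its stretch of genome, 316.7 kb, was longer than those of Spry4 and Spred1, which had 3 and 2 peaks.

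The Ets effectors also differed from each other. Etv5 (ENSMUSG00000013089.15, chr16:22381309-22439719, minus strand), a transcription factor of the Pea3 group, had 4 peaks, all inside the gene, a count reached by 4.73% of all protein-coding genes. They lay 27.8, 35.8, 41.2 and 44.4 kb downstream of the start and formed a single stretch of 16.9 kb. Another Etv5 transcript starts within this stretch, so that the peaks were 2.12 to 10.1 kb from the start of a transcript. The peak at 27.8 kb, of 343 bp, had its centre in a coding exon of 288 bp (chr16:22411633-22411920), and 209 of its bases lay in that exon. It was the only one of the 32 peaks with its centre in an exon. Its Nanog extended motif, at position 148 of the printed sequence, lies within the exon, while the octamer at position 233, which is part of a spaced composite, lies in the intron beside it.

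Etv4 (ENSMUSG00000017724.14, chr11:101769742-101785371, minus strand), another member of the Pea3 group, had no peak within 100 kb. The closest, of 257 bp, lay 103.2 kb downstream, just beyond the limit, with Arl4d, a small GTPase gene, as its nearest protein-coding gene. Measured from the start of every transcript it was 90.0 kb away. Within 200 kb of the start, Etv4 had 1 peak and Etv5 had 4.

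Part of the peaks lay in groups. Of the 32, 7 lay in stretches of 3 or more peaks with gaps of at most 12.5 kb, at Etv5 and Fgfr1, which is 21.9% beside 5.76% of all peaks. Counting pairs as well, 15 of the 32 lay in a stretch, or 46.9% beside 24.1%, and without the Fgfr2 peaks 11 of 27, or 40.7%. In the whole list 30 stretches held 4 or more peaks, and that at Etv5 was among them.

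In width, composition and position the values were close to those of the whole list. The median width was 302 bp (258 to 345), beside 319 bp (316 to 322) over all peaks. The minimum width of 235 bp was that of 5 of the 32 peaks, or 15.6%, beside 8.91%. The median GC content was 49.8% beside 47.7%. Introns held the centres of 16 peaks, or 50% (31.9 to 68.1), beside 47.5%, and 15 lay between genes, or 46.9% beside 46.3%. The reference was masked as a repeat at the centre of 7, or 21.9% beside 20.4%.

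Motifs were searched as exact letters on both strands: Oct octamer ATGCAAAT and its variant ATGCTAAT, Sox CATTGT or CTTTGT, Nanog core CCATTA, Nanog extended GCCATTAA, Klf GCCCCACCC, GCCCCGCCC, GCCACACCC or GCCACGCCC, Esrrb TCAAGGTCA, Stat TTCCNGGAA, Tcf CTTTGAT or CTTTGAA, Ets CCGGAAG and Tead GGAATG. The Oct4-Sox2 composite, which joins a Sox and an Oct site with 1 base between them, and the spaced composite, with 4 bases between them, were allowed 2 mismatches. Matches can overlap: the extended Nanog motif holds the core, and a composite can hold an octamer or a Sox motif. A match describes the letters and not a bound site.

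Sox motifs were found most often, in 18 of the 32 peaks. That is 56.3% (37.7 to 73.6), beside 59.0% of all peaks and 40.5% of windows of the same width 1 kb beyond the edges of all peaks. In such windows beside the 32 peaks the share was 29.5%. The Nanog core motif was found in 7 peaks, or 21.9% (9.28 to 40.0), beside 18.1% of all peaks and 13.0% of the windows. The composite was found in 2, or 6.25% beside 6.51% of all peaks and 0.888% of the windows. For these 3 motifs the interval held the share of all peaks.

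For the Ets, Stat and Tcf motifs, of factors that act downstream of signalling pathways, the interval held the share of all peaks. The same was so for the Esrrb, octamer and Klf motifs. The Ets motif, the site of the factors through which ERK acts, was in 2 peaks, those 4.22 kb from Spry2 and 4.01 kb from Spred2, or 6.25% (0.766 to 20.8) beside 2.83% of all peaks and 1.26% of the windows. The Stat motif, read by the factor that LIF activates, was in none, for which the exact interval reaches 10.9%, beside 1.33% of all peaks. The Esrrb motif was in 2 peaks, both at Spry2, or 6.25% beside 3.53%. The octamer was in 2 peaks, beside 5.72% of all peaks, and Klf motifs were in 2, or 6.25%, beside 786 of all 8735 peaks searched. The Tcf motif, of the Wnt pathway, was in 7, or 21.9% beside 17.4%.

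The Tead motif was the only one whose interval left out the share of all peaks. It was found in 2 peaks, those 71.0 kb from Spred1 and 27.9 kb from Fgfr1, or 6.25% (0.766 to 20.8), beside 25.4% of all peaks and 17.5% of the windows. Without the Fgfr2 peaks it was 2 of 27, or 7.41% (0.910 to 24.3). Among 13 motifs a single interval of this kind is a description of these peaks only. No motif of the 13 was found in 9 of the 32 peaks, or 28.1% (13.7 to 46.7), beside 15.4% of all peaks, and without the Fgfr2 peaks in 6 of 27.

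**Figure D5:**
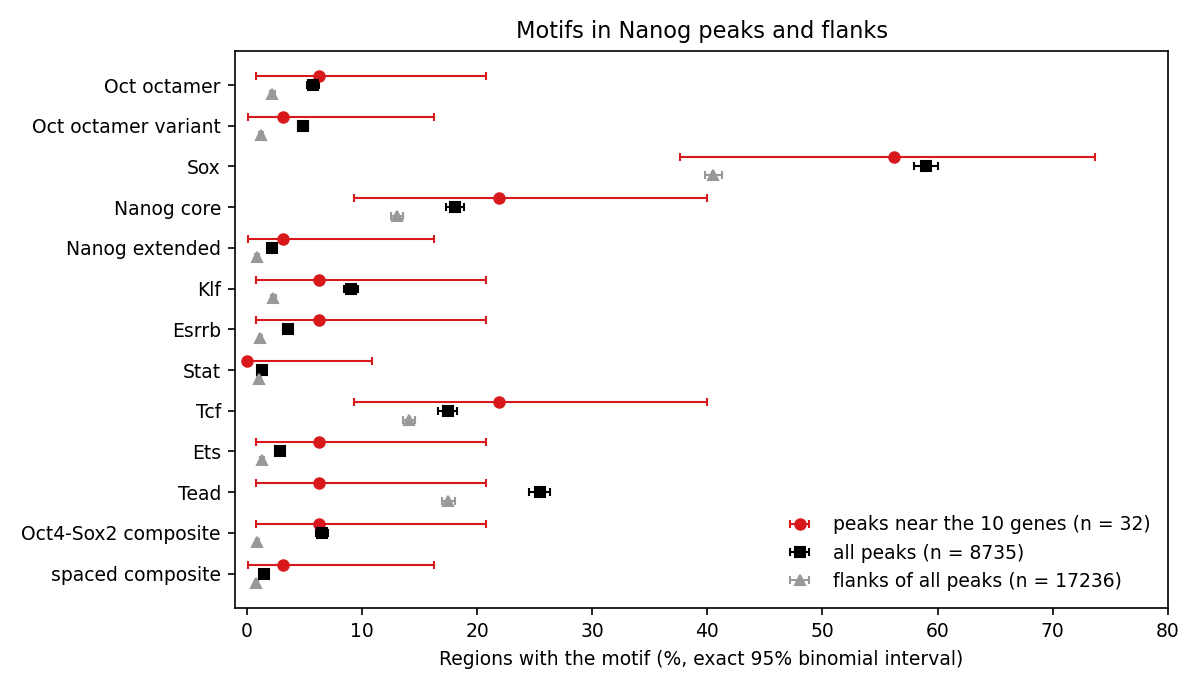
Share of regions (percent) with each motif, for the 32 peaks near the 10 genes, all peaks on the primary chromosomes and the windows 1 kb beyond all peaks, with exact 95% binomial intervals. The Tead motif lies lower near the 10 genes (6.25%) than in all peaks (25.4%), and the other intervals hold the share of all peaks.

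A chosen list of other pathway genes, which is not the whole pathway, had a median of 1 peak a gene within 100 kb. This median was 3.5 for the 10 genes, with Fgfr2 counted at its distant start, and 1 for all protein-coding genes. Of 61 other pathway genes listed, 60 were found in the annotation, and 38 of these had a peak within 100 kb, or 63.3% (49.9 to 75.4), beside 54.8% of all protein-coding genes. A peak had one of them as its nearest gene for 26, or 43.3%, beside 24.6%. The median distance of the closest peak was 59.4 kb, between the 9.94 kb of the 10 genes and the 85.3 kb of all protein-coding genes. Some of the 60 genes share peaks with a neighbour, as Fgf3 and Fgf15 do with Fgf4. They are therefore not independent counts, which the interval above does not take into account.

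By role, a peak lay within 100 kb of 11 of 17 other ligands, 2 of 4 other receptors and co-receptors, 5 of 8 adaptors and exchange factors, 10 of 14 genes of the kinase cascade, 5 of 9 other feedback inhibitors and 5 of 8 other Ets and immediate early genes. Il17rd, a membrane inhibitor of FGF signalling also known as Sef, had 5 peaks, and its closest, of 284 bp, had its centre 0.027 kb upstream of the start. Fgf21, a metabolic hormone of the FGF family, and Shc1, an adaptor, had 5 peaks each, though no peak had Shc1 as its nearest gene. Sos1, an exchange factor for Ras, had 4, of which 2 had it as the nearest gene. Egr1, an immediate early gene, had 4, none with it as the nearest gene.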

How the data were processed

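Per the study's methods and the submitters' processing notes, reads were inspected with FastQC, aligned to mm10 with Bowtie2 and filtered with BEDtools and SAMtools for quality, duplicates, blacklisted regions and the mitochondrial genome, and MACS2 called the peaks. Its threshold and the use of the input as control are not given in the sources used here. The authors deposited chromosome, start and end of each peak, with no score, so peaks just under the threshold cannot be told from unbound positions. The input was not analysed here.

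Among its 8860 lines, 123 are repeats of an earlier interval. Each of the 8737 distinct intervals counted once, and 2 on scaffolds entered no other count. A TSS was the 5′ end of the gene in GENCODE vM21, and the nearest gene was searched up to 1000 kb. Sequence was read from GRCm38 and RefSeq starts from its GRCm38.p6 annotation. Annotation was read at the middle base, where coding exons took precedence over untranslated regions, these over other exons, and exons over introns. The genes named beyond the 10 were the 5 of the wider list with the most peaks within 100 kb, and the genes nearest to a peak described. A few items are not reported here. The members and lists were chosen with earlier results of these data known. With 1 library and no strengths, no test was run. Shares carry Clopper-Pearson and medians order-statistic intervals. Alternatives changed the TSS, the point of measurement, the window, repeated lines, merging, peak width, the competing genes, the peaks taken and the motif window. Scripts (Python 3.11.15, pandas 2.3.3, NumPy 2.4.6, SciPy 1.17.1) were tested on simulated data.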

Additional observations from a re-analysis of the deposited data

How the results depend on the processing

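No paired analysis was possible because the series has 1 immunoprecipitated library and no comparison of groups, and no replicate could be left out. Of 119 alternative values for the main counts, shares and medians, 110 stayed within the limits set for them (1.5 times a count, the interval of a share or median). Counting every line, or merging peaks within 300 bp, left each main value as it was. The limits were also wide: a median closest distance of 25.9 kb in place of 9.94 kb stayed within them. The 9 values that moved are these. With peaks at or above the median width only, the peaks within 100 kb of the 10 genes fell from 32 to 15. The peaks with a pathway gene as the nearest fell from 30 to 15, and the share with an Esrrb motif from 6.25% to 0%. The wider pathway genes with a peak fell from 38 to 22, while the share of all protein-coding genes with a peak fell from 54.8% to 34.8%. Under this width limit Fgf4 had no peak within 100 kb, with its closest peak then 191.7 kb away. With a window of 50 kb the 32 peaks became 21. With all annotated genes competing, 5 genes in place of 8 were nearest to a peak, and 13 peaks in place of 30 were so assigned. In 200 bp around the centre the share with a Sox motif was 37.5% in place of 56.3%, and with the octamer variant 0% in place of 3.13%. Of 160 alternative values for single genes, 28 moved by over 1.5 times. RefSeq starts, added after the data were seen, took Fgfr2 from 5 peaks within 100 kb to 0, and lowered the peaks nearest to Fgfr1 from 5 to 4 and to Spry4 from 3 to 2. The list holds no score or read count for a peak, so no weak peak could be weighed, and the threshold of the call limits what the absence of a peak at Dusp6 and Etv4 can show.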
